A study of Mus musculus with 6 samples.

Results

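Expression of 29 genes of cholesterol synthesis and its control by SREBP2 was followed in mouse liver after acute ethanol exposure. They were taken by symbol from a table of 28880 genes and ordered along the pathway, from acetyl-CoA to cholesterol and then to side branches, regulators and sterol handling. All 29 were found once in the table and all 29 were among the 16717 genes with enough counts to be tested. Hepatic RNA was sequenced from 3 ethanol-exposed mice and 3 control mice, all wild-type males of strain C57BL/6J aged 6 to 8 weeks and all labelled as the same batch. The ethanol-exposed mice went without food for 12 h, were given 50% ethanol once by mouth at 6 g/kg, and were sampled 24 h later. Control mice are described only as kept without ethanol, so ethanol, fasting and gavage cannot be told apart in this design. Whole liver was used, and fewer cells of a type and less RNA per cell cannot be told apart.

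Cholesterol is built in hepatocytes from acetyl-CoA. The early enzymes make mevalonate and join isoprene units into farnesyl diphosphate, the middle enzymes make squalene and fold it into lanosterol, and the late enzymes trim lanosterol to cholesterol. SREBP2, the product of Srebf2, is the main transcription factor of these genes. Scap carries it from the endoplasmic reticulum to the Golgi when membranes are poor in sterol, where proteases release its active part, and the Insig proteins hold it back when sterol is plentiful. The liver also takes up, esterifies and exports cholesterol, and the nuclear receptors LXR switch on export genes when oxysterols accumulate.

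In ethanol-exposed mice, 14 of the 29 genes were downregulated DEGs and 0 were upregulated DEGs, where a differentially expressed gene (DEG) passes the test (adjusted p under 0.05) with a log2 fold change above 1 or below -1. Among all genes tested, 13.8% were downregulated and 10.4% upregulated at the same thresholds. The adjusted p is from edgeR's quasi-likelihood test, two-sided, with correction by Benjamini and Hochberg over all 16717 genes. On the adjusted p alone, 16 of the 29 fell and 3 rose, beside 21.5% and 21.5% of all genes, and 10 did not pass. The 3 that rose were Insig2, Soat2 and Nus1, and with library size alone in place of TMM none of them passed and Nus1 changed sign. In 17 genes every ethanol-exposed mouse lay below every control mouse (31% of all genes), in 6 every one lay above (28% of all genes), and in the other 6 the groups overlapped. The median log2 fold change of the 29 genes was -0.92 and that of all genes tested was -0.04. The downregulated DEGs were 13 enzymes and the sterol carrier Stard4. Of the 19 sterol pathway enzymes, 14 passed the test downward and 0 upward, with a median of -1.33. Both counts of 0 upward were also 0 at an unadjusted p under 0.05 in edgeR and 0 with DESeq2. With the trend over transcript length removed, 2 enzymes, Tm7sf2 and Lbr, passed upward. With library size alone, 17 of the 29 genes were downregulated DEGs and 0 upregulated, beside 32.2% and 5.06% of all genes. On the adjusted p alone, 17 of the 19 enzymes then passed downward and 0 upward, beside 48.3% and 7.39% of all genes.

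Levels are given as CPM, the count of a gene relative to its library's total after TMM scaling, and as FPKM, the deposited value per length of transcript, which carries no TMM scaling. Summed over the 19 enzymes, the level was 2565 ± 215 CPM (SD, n = 3) in controls, and after ethanol it was 997 ± 124 CPM (SD, n = 3). The individual sums ran from 860 to 1101 CPM after ethanol and from 2429 to 2813 CPM in controls, with no overlap. Per length, the summed FPKM was 200 ± 24.7 (SD, n = 3) against 751 ± 59.0 (SD, n = 3). Values of single mice are listed in the order of replicates 1, 2 and 3, and a standard error (SE) is that of the log2 fold change.

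Ethanol-exposed mouse 3 stood apart from the rest of its group in many of these genes. It was the lowest of the ethanol group in 22 of the 29 genes (75.9%) and in 39.4% of the 16609 genes tested with any count in that group. The correlation of its log2 CPM with the other ethanol-exposed mice, across genes, was 0.9753 and 0.9705, where those mice had 0.9917 with each other and controls 0.9915 to 0.9948. Without it, 11 of the 29 genes were downregulated DEGs, and Lss, Cyp51 and Stard4 were lost. The same 3 were lost without control mouse 1 and after removal of each library's trend with transcript length.

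**Figure D1:**
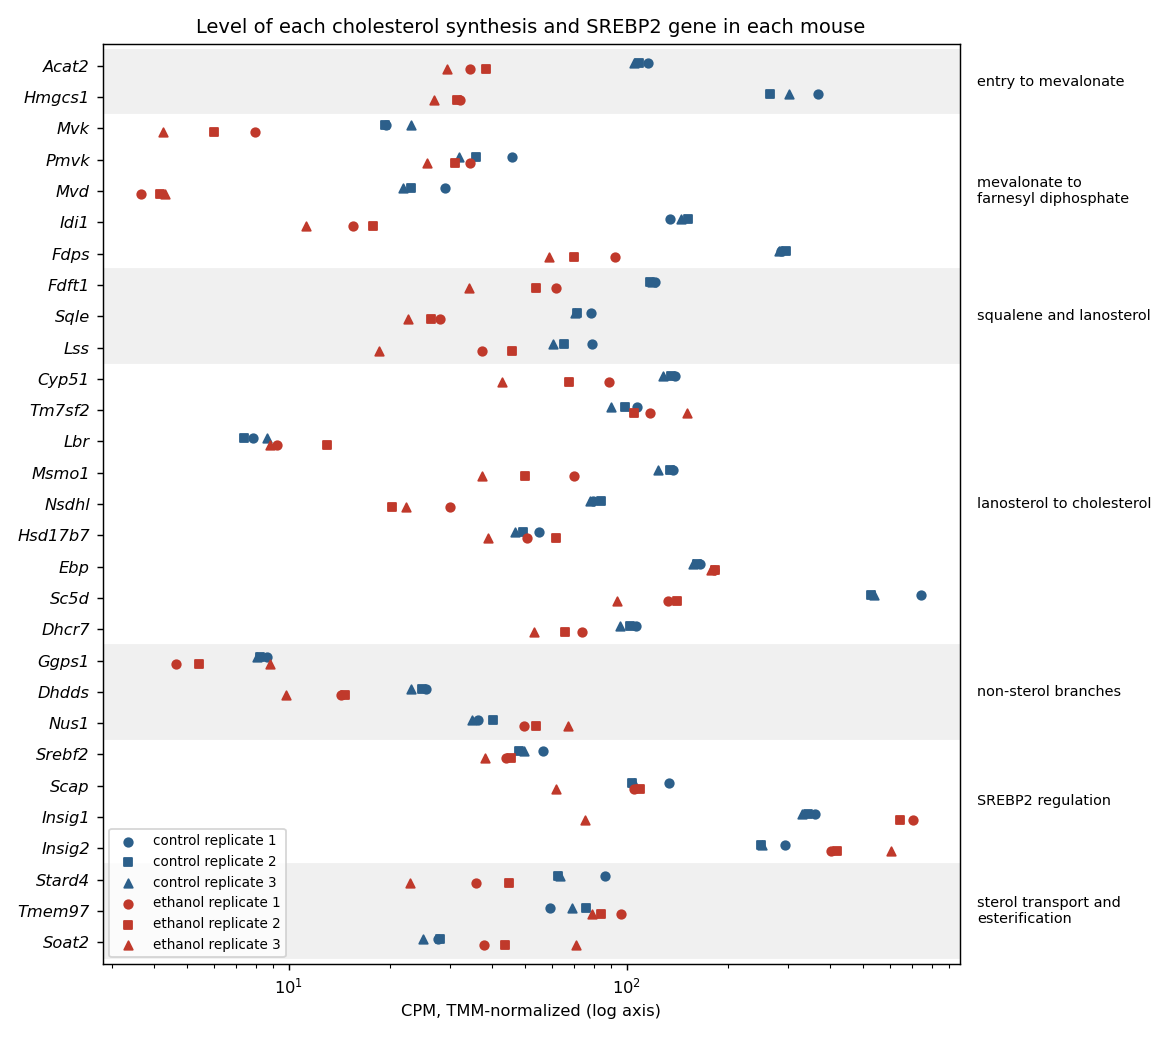
TMM-normalized CPM (log axis) of each of the 29 genes in each of 3 control mice (blue) and 3 ethanol-exposed mice (red), with marker shape giving the replicate number and genes ordered along the pathway. Among the first 10 genes, from Acat2 to Lss, all red points lie to the left of all blue points except in Pmvk, where they overlap.

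Both genes at the entry to the pathway fell. Acat2, the cytosolic thiolase that joins acetyl-CoA units, stood at 34.5, 38.4 and 29.3 CPM in ethanol-exposed mice 1, 2 and 3 and at 115, 109 and 105 CPM in control mice 1, 2 and 3. The groups were well apart, and the log2 fold change was -1.69 (SE 0.13, adjusted p = 0.000187). Its neighbour Acat3 is nearly identical in sequence, so that reads may be shared between them. Acat3 went from a mean of 284 CPM in controls to 154 CPM after ethanol, a log2 fold change of -0.88 (SE 0.12, adjusted p = 0.00173), the same direction.

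Hmgcs1, which condenses acetoacetyl-CoA with acetyl-CoA to HMG-CoA, had the largest decrease of the 29 genes with all mice included. Its level was 32.1, 31.4 and 26.9 CPM in ethanol-exposed mice 1, 2 and 3 and 367, 266 and 301 CPM in control mice 1, 2 and 3. The highest ethanol-exposed mouse thus lay far below the lowest control. The control mean was 10.3-fold the ethanol mean, a log2 fold change of -3.37 (SE 0.16, adjusted p = 5.92e-05). That of Idi1 was lower without control mouse 1 (-3.32 against -3.24) and without ethanol-exposed mouse 2 (-3.42 against -3.40). Hmgcs1 (ENSMUSG00000093930) is placed at chromosome 13, 120151915 to 120169796, on the plus strand in the coordinates of the deposited table.

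Promoter windows from RefSeq on GRCm38.p6, the 250 bases before the annotated start of transcription, were found for 24 of the 29 genes and not for Fdft1, Fdps, Sqle, Stard4 and Soat2. They were searched on both strands for the sterol regulatory element written as TCACNCCAC and for the E-box ATCACGTGA that SREBPs also bind. The search also covered CCAAT, the box of NF-Y, and GGGCGG, the core of the Sp1 site. NF-Y and Sp1 are the usual partners of SREBP2 at promoters. The windows of the 3 genes with the lowest log2 fold changes are shown, because they carry these letters in different arrangements. Capitals mark TCACNCCAC and CCAAT, the latter read as ATTGG where it lies on the opposite strand. Hmgcs1 is at chr13:119690101-119690350 (plus strand), Idi1 at chr13:8885356-8885605 (plus strand) and Mvd at chr8:122443423-122443672 (minus strand), each written 5′ to 3′ toward the gene.
Hmgcs1: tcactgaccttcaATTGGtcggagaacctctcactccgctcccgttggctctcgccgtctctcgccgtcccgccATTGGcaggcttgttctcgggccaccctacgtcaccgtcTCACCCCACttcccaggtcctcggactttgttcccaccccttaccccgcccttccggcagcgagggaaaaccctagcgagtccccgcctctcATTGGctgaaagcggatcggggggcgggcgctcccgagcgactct
Idi1: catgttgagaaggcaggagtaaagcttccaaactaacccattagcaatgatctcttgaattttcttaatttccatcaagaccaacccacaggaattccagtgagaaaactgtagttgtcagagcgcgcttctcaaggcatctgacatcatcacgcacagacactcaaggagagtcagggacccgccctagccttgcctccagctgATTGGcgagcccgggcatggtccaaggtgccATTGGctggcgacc
Mvd: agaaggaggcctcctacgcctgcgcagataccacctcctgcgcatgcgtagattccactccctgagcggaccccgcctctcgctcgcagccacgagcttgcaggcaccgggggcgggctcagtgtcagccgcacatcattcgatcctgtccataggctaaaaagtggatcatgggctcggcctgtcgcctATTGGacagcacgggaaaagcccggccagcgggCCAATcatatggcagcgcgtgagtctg
In Hmgcs1 the sterol element begins at base -137 before the start, with CCAAT boxes at -237, -176 and -45. Idi1 has CCAAT boxes at -45 and -14 and Mvd at -60 and -27, and neither holds TCACNCCAC in this window.

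Across the 30 windows of the 24 genes, TCACNCCAC was in 1 window (3.33%), that of Hmgcs1, and in 1.05% of all 32851 windows of the same length. ATCACGTGA was in 0 of them, against 0.277% of all windows. CCAAT was in 22 of the 30 windows (73.3%) against 33.8% of all windows, and GGGCGG in 23 (76.7%) against 32.7%. Of the 14408 windows of genes tested, 35.1% held CCAAT and 53.7% held GGGCGG. Of the 10 downregulated DEGs with a window, 9 held CCAAT and 10 held GGGCGG, and of the other 14 genes, 13 and 11 did, a difference that was not tested. These are matches of letters and not measured binding, and several genes have more than 1 window.

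Of the 5 genes from mevalonate to farnesyl diphosphate, 4 were downregulated DEGs. Idi1, the isomerase that activates the isoprene unit, was at 15.5, 17.7 and 11.3 CPM in ethanol-exposed mice and at 134, 151 and 145 CPM in controls. Its log2 fold change was -3.27 (SE 0.18, adjusted p = 7.66e-05), and the control mean was 9.67-fold the ethanol mean. Mvd, which decarboxylates mevalonate diphosphate to that isoprene unit, was lower after ethanol, at 3.67, 4.15 and 4.31 CPM against 29.0, 23.0 and 21.8 CPM. By mean FPKM it ranked 19 of the 29 genes in controls and 28 after ethanol. It changed by -2.61 (SE 0.16, adjusted p = 9.44e-05), and its values after ethanol lay close together.

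Fdps, farnesyl diphosphate synthase, stood at 92.5, 69.6 and 58.9 CPM after ethanol against 286, 295 and 283 CPM in controls. The change was -1.97 (SE 0.17, adjusted p = 0.000303). Mvk, mevalonate kinase, was at 7.96, 6.00 and 4.25 CPM against 19.4, 19.3 and 23.0 CPM, a log2 fold change of -1.76 (SE 0.23, adjusted p = 0.00140). Neither gene had overlapping groups. Pmvk, the kinase of the next step, was at 34.4, 31.0 and 25.7 CPM in ethanol-exposed mice and 45.9, 35.9 and 32.0 CPM in controls, the groups overlapped, and the log2 fold change of -0.32 (SE 0.17) did not pass (adjusted p = 0.169). Pmvk passed downward with library size alone (-0.99, adjusted p = 0.00319), with a mean FPKM of at least 5 (-0.59, adjusted p = 0.0202) and with the 3 limma settings, which tested log2(FPKM + 1), log2(FPKM + 0.1) and quantile-normalized log2(FPKM + 1) (-0.98 to -0.63, adjusted p of 0.00292 to 0.0163).

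All 3 genes that make squalene and lanosterol fell. Sqle, squalene epoxidase, a rate-limiting enzyme of the later pathway, was at 28.1, 26.4 and 22.5 CPM in ethanol-exposed mice and 78.6, 71.5 and 70.4 CPM in controls (log2 fold change -1.52, SE 0.12, adjusted p = 0.000212). Fdft1, squalene synthase, was at 61.7, 54.1 and 34.1 CPM against 121, 118 and 119 CPM. The controls were close to each other and ethanol-exposed mouse 3 was the lowest, with a change of -1.26 (SE 0.21, adjusted p = 0.00332). Fdft1 overlaps Ctsb on the opposite strand, a gene with 26842 to 41012 counts per library, and the sources used here do not say if reads were assigned by strand.

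Lss, lanosterol synthase, was at 37.3, 45.9 and 18.5 CPM after ethanol and 78.8, 65.5 and 60.5 CPM in controls. Its groups did not overlap, but its log2 fold change of -1.01 (SE 0.31, adjusted p = 0.0345) lay at the DEG threshold. Without ethanol-exposed mouse 3 it was -0.70, and it missed the test (adjusted p of 0.0708 to 0.112) without ethanol-exposed mouse 1, without any 1 of the 3 control mice, and with the trend over transcript length removed (adjusted p = 0.0632). From acetyl-CoA to lanosterol, 9 of 10 genes were thus downregulated DEGs with a median of -1.72, and Pmvk was the exception with TMM.

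The change was less even among the 9 genes that turn lanosterol into cholesterol. Of these, 4 were downregulated DEGs, 5 passed the test downward and 4 did not pass. Sc5d, the desaturase near the end of the pathway, had the largest decrease among them, from 741, 527 and 540 CPM in control mice 1, 2 and 3 to 132, 141 and 93.4 CPM in ethanol-exposed mice 1, 2 and 3. The log2 fold change was -2.30 (SE 0.21, adjusted p = 0.000357). Per length it had the highest mean of all 29 genes in controls, 146 ± 29.5 FPKM (SD, n = 3), and ranked 6 after ethanol at 18.7 ± 4.49 FPKM (SD, n = 3). The control SD covers the difference from the next gene, Insig1, at 132 ± 6.14 FPKM (SD, n = 3).

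Nsdhl and Msmo1, which act in turn to strip methyl groups from the sterol ring, both fell. Nsdhl was at 30.0, 20.1 and 22.2 CPM after ethanol against 79.5, 84.0 and 77.7 CPM (log2 fold change -1.74, SE 0.16, adjusted p = 0.000379). Msmo1 was at 69.8, 50.2 and 37.2 CPM against 137, 134 and 124 CPM, a change of -1.33 (SE 0.22, adjusted p = 0.00316). Hsd17b7, the reductase that completes the same demethylation, did not pass. Its values of 50.8, 61.8 and 38.9 CPM after ethanol bracketed those of controls, 55.2, 49.3 and 46.7 CPM, and the estimate was 0.00 (SE 0.17, adjusted p = 0.990). The sign of that estimate changed with the scaling, and with library size alone it was -0.66 and passed (adjusted p = 0.0261), as it did with limma on log2(FPKM + 1) (adjusted p = 0.0217).

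Cyp51, the demethylase that first acts on lanosterol, stood at 88.7, 67.6 and 42.6 CPM in ethanol-exposed mice and 139, 135 and 128 CPM in controls. All ethanol-exposed mice lay below all controls, with mouse 3 lowest. Its log2 fold change was -1.02 (SE 0.24, adjusted p = 0.0140), and -0.77 without mouse 3 of the ethanol group, where it still fell but was no DEG. Without control mouse 1 the adjusted p was 0.0502. Cyp51 shares bases with Akap9 on the opposite strand. Dhcr7, the reductase of the last step, fell by less. It was at 73.7, 65.5 and 53.2 CPM against 107, 102 and 95.4 CPM, a log2 fold change of -0.66 (SE 0.14, adjusted p = 0.00793).

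Tm7sf2 and Lbr encode reductases that can serve the same step after Cyp51, and neither passed the test. Tm7sf2 was at 117, 105 and 151 CPM after ethanol and 107, 98.7 and 89.8 CPM in controls, with overlapping groups (log2 fold change 0.34, SE 0.16, adjusted p = 0.120). Lbr, also a protein of the nuclear envelope, had the lowest FPKM of the 29 genes in controls. It was at 9.26, 13.0 and 8.80 CPM against 7.86, 7.36 and 8.60 CPM, every ethanol-exposed mouse above every control, with a log2 fold change of 0.38 (SE 0.19, adjusted p = 0.137). Without ethanol-exposed mouse 3 that of Lbr was 0.50 with an adjusted p of 0.0400. Ebp, the sterol isomerase, also lay above controls in every ethanol-exposed mouse, at 182, 183 and 177 CPM against 164, 161 and 157 CPM, with a log2 fold change of 0.17 (SE 0.09, adjusted p = 0.174). These positive values hold only relative to the scaling, since with library size alone the log2 fold changes were -0.34 for Tm7sf2, -0.28 for Lbr and -0.50 for Ebp, the last with an adjusted p of 0.00524. Tm7sf2 also overlaps Vps51 on the same strand.

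**Figure D2:**
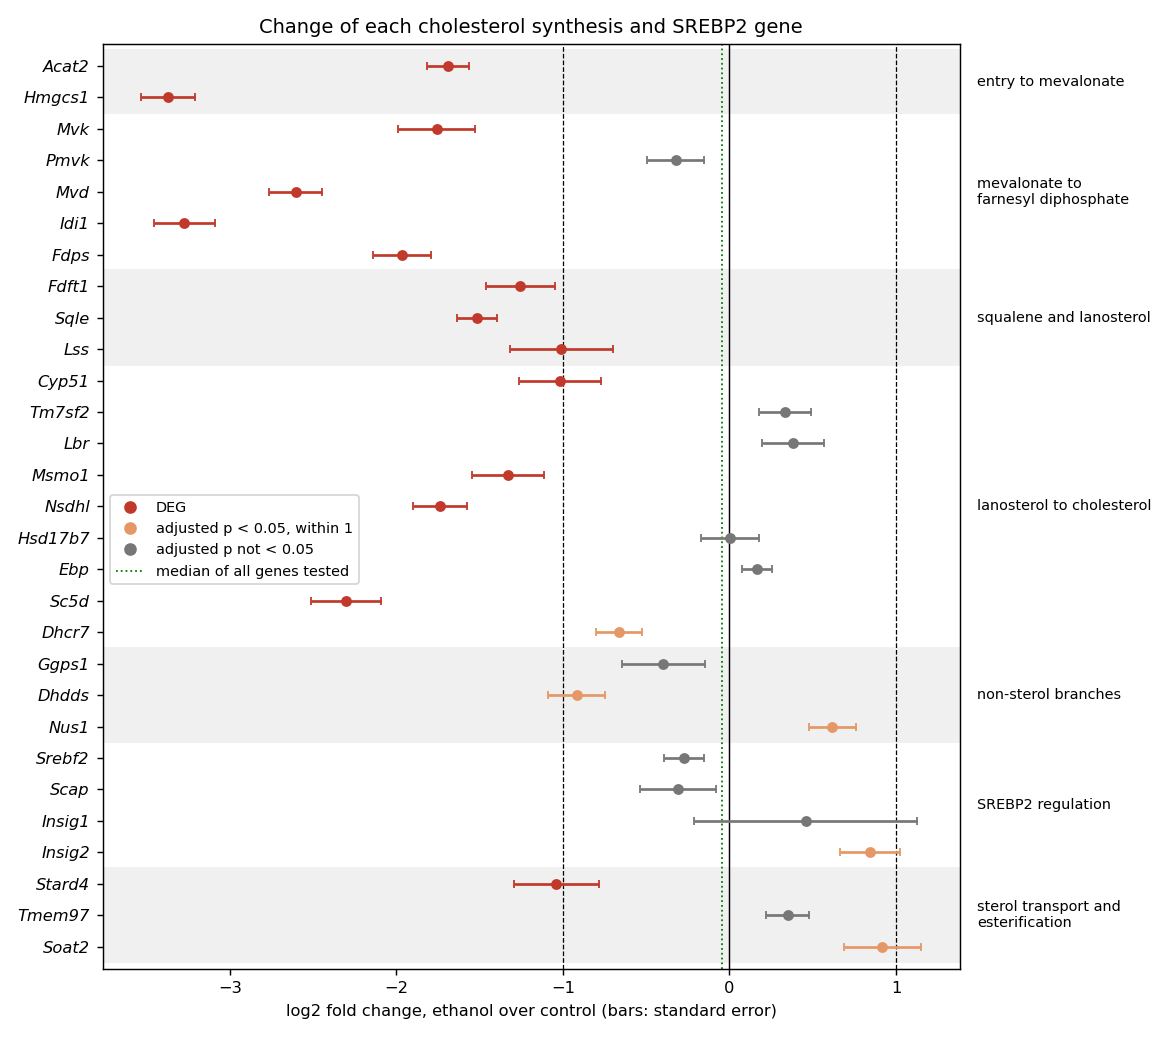
Log2 fold change of each of the 29 genes, ethanol over control, with bars of 1 standard error, coloured by whether the gene was a DEG, passed on the adjusted p alone or did not pass; dashed lines mark a log2 fold change of 1 in either direction and the dotted line the median of all genes tested. The points left of the lower dashed line are 13 enzymes and Stard4, and no point lies right of the upper one; the points right of 0 for Tm7sf2, Lbr, Hsd17b7, Ebp, Nus1, Insig1 and Tmem97 move to the left of 0 with library size alone.

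The levels per length show how the order of the pathway's transcripts changed. In controls, the 5 genes with the highest mean FPKM after Sc5d were Insig1 (132), Insig2 (89.8), Ebp (82.1), Fdps (80.7) and Hmgcs1 (80.0), and the SDs of 2.06, 1.77 and 13.3 FPKM of the last 3 cover the differences between them. After ethanol, Hmgcs1 was at 4.86 FPKM and went from rank 6 to rank 19. Idi1 went from 48.3 FPKM and rank 9 to 3.14 FPKM and rank 23. Soat2 moved the other way, from rank 21 at 14.3 FPKM to rank 7 at 16.9 FPKM.

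Farnesyl diphosphate also feeds branches that make no sterol, and of the 3 genes followed there 1 fell, 1 rose and 1 did not pass. Dhdds and Nus1 encode the subunits of the enzyme that makes the dolichol chain. Dhdds fell, from 25.5, 24.7 and 23.1 CPM in controls to 14.3, 14.7 and 9.79 CPM after ethanol, by a log2 fold change of -0.92 (SE 0.17, adjusted p = 0.00522). Its partner Nus1 was higher, at 49.7, 53.8 and 67.1 CPM after ethanol against 36.2, 40.2 and 34.8 CPM. The groups of both genes were separate, in opposite directions. Nus1 had a log2 fold change of 0.62 (SE 0.14, adjusted p = 0.0107), which became -0.05 with library size alone, and its adjusted p was 0.0547 without control mouse 3, 0.0899 with a mean FPKM of at least 5 and 0.0860 with limma on quantile-normalized log2(FPKM + 1).

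Ggps1, which makes geranylgeranyl diphosphate for protein prenylation, was at 4.64, 5.45 and 8.81 CPM after ethanol and 8.61, 8.22 and 8.04 CPM in controls. Ethanol-exposed mouse 3 lay above all controls and mice 1 and 2 lay below them, and the log2 fold change of -0.40 (SE 0.25) did not pass (adjusted p = 0.235). Without that mouse it was -0.71 with an adjusted p of 0.00439. It also passed with library size alone (-1.07, adjusted p = 0.00747) and with limma on log2(FPKM + 1) (-0.64, adjusted p = 0.00538) or log2(FPKM + 0.1) (-1.05, adjusted p = 0.00714). Ggps1 overlaps Arid4b on the opposite strand, a gene with more counts than its own.

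Among the 4 regulators of SREBP2, 0 were DEGs, whether by adjusted or unadjusted p in edgeR or by DESeq2, and 1, Insig2, passed the test. Srebf2 itself was at 43.9, 45.6 and 38.0 CPM in ethanol-exposed mice and 56.5, 47.9 and 49.7 CPM in controls. The groups did not overlap but were close, and the log2 fold change of -0.27 (SE 0.12) did not pass (adjusted p = 0.0989). The call depended on the scaling. Srebf2 passed downward in 6 alternatives, from -0.37 with upper quartile scaling (adjusted p = 0.0368) to -0.94 with library size alone (adjusted p = 0.00116). Scap, at 105, 110 and 61.8 CPM against 133, 104 and 105 CPM, overlapped between the groups (log2 fold change -0.31, SE 0.23, adjusted p = 0.308). It passed with library size alone (-0.97, adjusted p = 0.0129) and with limma on log2(FPKM + 1) or log2(FPKM + 0.1).

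Insig1 and Insig2 encode related proteins that retain Scap in the endoplasmic reticulum. Insig1, a gene that SREBP2 induces, was at 704, 645 and 75.3 CPM in ethanol-exposed mice 1, 2 and 3 and at 360, 345 and 330 CPM in control mice 1, 2 and 3. Ethanol-exposed mice 1 and 2 thus lay above all controls and mouse 3 far below them. The mean of ethanol-exposed mice 1 and 2 was 8.96-fold the value of mouse 3, the widest such ratio among the 29 genes. With all mice the log2 fold change was 0.46 (SE 0.67, adjusted p = 0.605), and it was -0.19 with library size alone. Without mouse 3 of the ethanol group it was 0.98 with an adjusted p of 8.54e-05.

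Srebf1, which encodes SREBP1 and is no member of the gene set, is named here after its values were seen because it showed the same mouse apart. It was at 759, 999.9 and 179 CPM in ethanol-exposed mice and 253, 252 and 234 CPM in controls, so that mice 1 and 2 averaged 4.90-fold mouse 3. Its log2 fold change was 1.39 (SE 0.53, adjusted p = 0.0705), and 1.85 without mouse 3 of the ethanol group (adjusted p = 2.63e-05). Without mouse 2 of that group it was 0.93 (adjusted p = 0.211), and with library size alone 0.75 (adjusted p = 0.275). With the 3 limma settings it was 0.39 to 0.55 (adjusted p of 0.429 to 0.601). Insig2 had the opposite order. It was at 401, 419 and 605 CPM after ethanol, with mouse 3 highest, and at 293, 249 and 251 CPM in controls. Insig2 rose by 0.85 on the log2 scale (SE 0.18, adjusted p = 0.00875), but the call was lost with library size alone (0.17, adjusted p = 0.421) and with the 3 limma settings (0.15 to 0.23, adjusted p of 0.367 to 0.449).

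**Figure D3:**
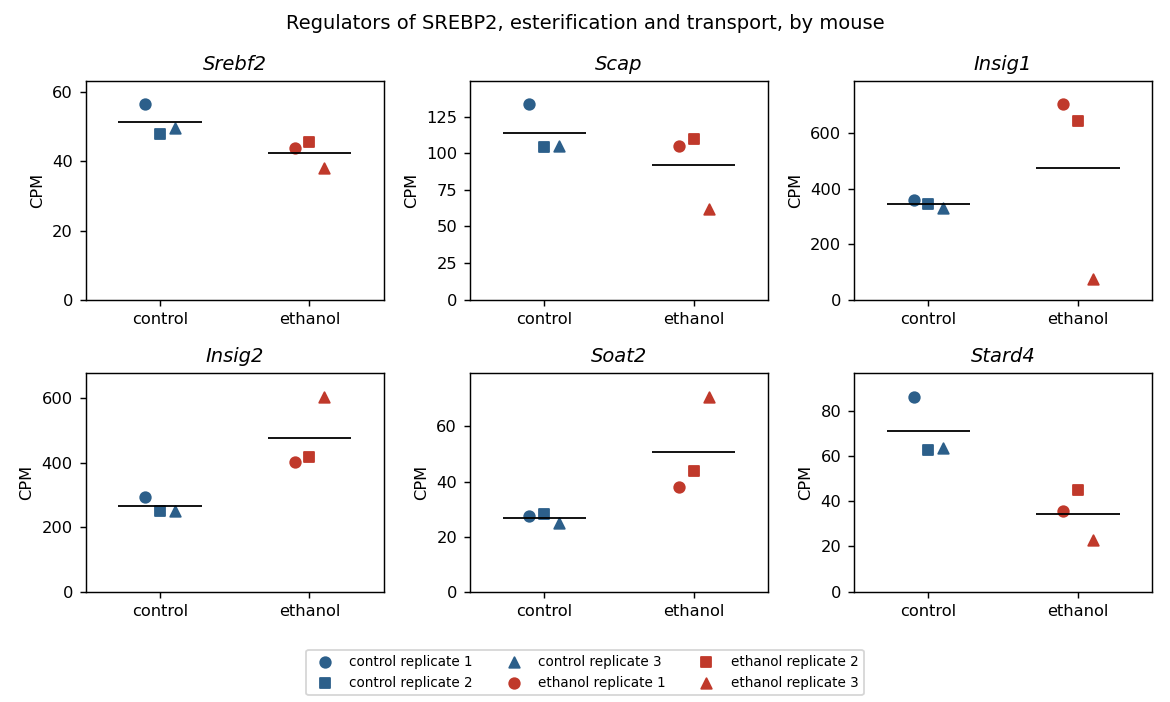
CPM in each mouse, with the group mean as a line, for Srebf2, Scap, Insig1 and Insig2 of SREBP2 control and for Soat2 and Stard4 of sterol handling; vertical axes start at 0 and differ between panels. In Insig1, ethanol-exposed mouse 3 is at 75.3 CPM and mice 1 and 2 are at 704 and 645 CPM, on either side of the controls, while in Insig2 and Soat2 the same mouse is the highest.

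The 3 genes that move or store sterol went different ways. Stard4, a cytosolic sterol carrier and SREBP2 target, was at 35.8, 44.9 and 22.8 CPM after ethanol and 86.3, 62.8 and 63.6 CPM in controls. It fell by 1.04 on the log2 scale (SE 0.26, adjusted p = 0.0153), with no overlap. Without ethanol-exposed mouse 3 the log2 fold change was -0.80 and Stard4 was no DEG, and without control mouse 1 its adjusted p was 0.0601. Soat2, the enzyme that esterifies cholesterol in hepatocytes, was at 37.9, 43.7 and 70.8 CPM against 27.7, 28.1 and 24.9 CPM. All ethanol-exposed mice lay above all controls.

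Soat2 rose by 0.92 on the log2 scale (SE 0.23, adjusted p = 0.0166), but this call was lost when any of the control mice was left out, with adjusted p of 0.0548 to 0.0701, with library size alone (log2 fold change 0.24, adjusted p = 0.377), with a mean FPKM of at least 5 (adjusted p = 0.0704) and with the 3 limma settings (0.19 to 0.53, adjusted p of 0.114 to 0.467). Without ethanol-exposed mouse 3 it was 0.61 with an adjusted p of 0.00150, and without ethanol-exposed mouse 1 or 2 it was 1.09 or 1.01, a DEG. Tmem97, which binds the lysosomal cholesterol transporter, was at 96.5, 84.1 and 79.1 CPM against 59.4, 75.6 and 68.7 CPM. It was above controls in every ethanol-exposed mouse, with a log2 fold change of 0.35 (SE 0.13) that did not pass (adjusted p = 0.0651) and that became -0.32 with library size alone. Without ethanol-exposed mouse 3 it was 0.42 with an adjusted p of 0.0231.

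**Figure D4:**
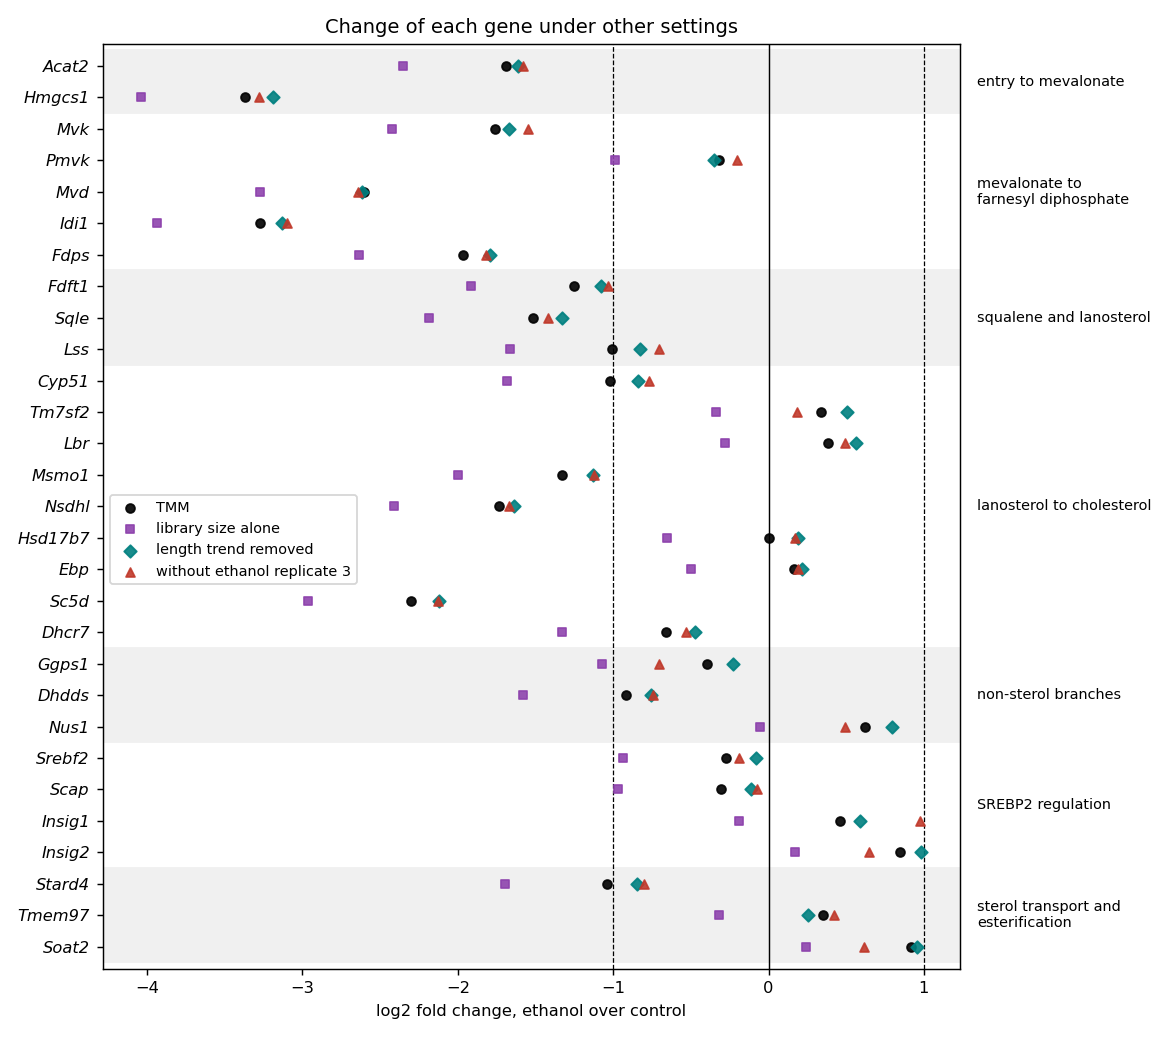
Log2 fold change of each of the 29 genes with TMM scaling, with library size alone, with the trend over transcript length removed and without ethanol-exposed mouse 3. The first 3 genes in order of change, Hmgcs1, Idi1 and Mvd, stay well left of the lower dashed line in all 4 settings, while 7 of the genes right of 0, Tm7sf2, Lbr, Hsd17b7, Ebp, Nus1, Insig1 and Tmem97, change sign with library size alone, which lowers the median of all genes tested to -0.71.

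Other genes around the pathway were taken as lists, whose counts stand beside the 21.5% of all genes tested that fell and the 21.5% that rose with TMM. With library size alone, 48.3% of all genes fell and 7.39% rose. Of 10 genes for SREBP cleavage and sterol-regulated degradation, 1 fell and 2 rose, and with library size alone 6 fell and 1 rose. Mbtps1, the protease that makes the first cut in SREBPs, fell by 0.43 on the log2 scale (SE 0.10, adjusted p = 0.0130). Ube2g2, a ubiquitin-conjugating enzyme of that degradation, rose from 29.4, 30.6 and 28.1 CPM in controls to 95.3, 78.7 and 86.5 CPM (log2 fold change 1.56, SE 0.11, adjusted p = 0.000159). Aup1, the protein that recruits Ube2g2 to the membrane, rose by 0.68 (SE 0.10, adjusted p = 0.00233), a difference that was 0.016 with an adjusted p of 0.918 under library size alone. The Aup1 call was lost in 3 of 17 alternatives, with a log2 fold change as low as 0.0092. The median of the list was -0.01. The Mbtps1 call was lost without control mouse 2 or 3 (adjusted p of 0.0600 and 0.0597) and with the trend over transcript length removed (-0.25, adjusted p = 0.0931).

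Of 8 genes for cholesterol efflux and LXR, 5 rose and 1 fell, with a median log2 fold change of 0.84, against 21.5% of all genes in each direction. With library size alone 2 rose and 2 fell, against 7.39% and 48.3% of all genes. Abca1, the transporter that loads cholesterol onto nascent HDL and an LXR target, was at 421, 414 and 671 CPM after ethanol and 131, 116 and 138 CPM in controls. It rose by 1.97 (SE 0.21, adjusted p = 0.000626). Abcg5, a subunit of the transporter that secretes sterol into bile, was at 151, 167 and 80.4 CPM against 45.2, 37.5 and 41.5 CPM and rose by 1.68 (SE 0.26, adjusted p = 0.00265). All ethanol-exposed mice lay above all controls in both genes. Abcg8, the partner subunit of Abcg5, was at 84.4, 77.8 and 37.0 CPM after ethanol against 48.9, 44.4 and 41.6 CPM. Its groups overlapped, and its log2 fold change of 0.56 (SE 0.29) did not pass (adjusted p = 0.152). Abcg1 lay below all controls in every ethanol-exposed mouse but did not pass either (-0.58, SE 0.23, adjusted p = 0.0761). Mylip, the LXR-induced ligase that removes lipoprotein receptors, rose by 1.07 from a low level (SE 0.26, adjusted p = 0.0139). Nr1h3, which encodes LXR alpha, was the gene that fell, by 0.88 (SE 0.21, adjusted p = 0.0132). Abca1 and Abcg5 passed in all 17 alternatives. Mylip did not pass with library size alone (0.39, adjusted p = 0.221) or with limma on log2(FPKM + 1) (0.21, adjusted p = 0.228) or log2(FPKM + 0.1) (0.34, adjusted p = 0.243). Without control mouse 2 the adjusted p of Mylip was 0.0599 and that of Nr1h3 0.0519, and without control mouse 3 that of Nr1h3 was 0.0501.

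Of 13 genes for cholesterol uptake and transport inside the cell, 3 rose and 3 fell, with a median of 0.06, beside 21.5% of all genes in each direction. With library size alone 7 fell and none of the 3 calls upward remained, beside 48.3% of all genes that fell and 7.39% that rose. Scarb1, the HDL receptor, rose by 0.92 (SE 0.13, adjusted p = 0.00169), Npc2, which hands over cholesterol in the lysosome, by 0.69 (SE 0.10, adjusted p = 0.00177) and Vldlr, a lipoprotein receptor at a mean of 3.96 CPM after ethanol, by 1.27 (SE 0.43, adjusted p = 0.0477). Lipa, the lysosomal lipase that frees cholesterol from its esters, fell by 0.95 (SE 0.16, adjusted p = 0.00384), Osbp by 0.67 and Gramd1c by 0.56, both sterol transfer proteins at membrane contacts. The calls of Vldlr, Osbp and Gramd1c were lost in 11, 6 and 7 alternatives, respectively. Each was lost in turn without ethanol-exposed mouse 1 or any 1 of the control mice (adjusted p of 0.0771 to 0.137 for Vldlr, 0.0594 to 0.1001 for Osbp and 0.0745 to 0.120 for Gramd1c), and Vldlr and Osbp also without ethanol-exposed mouse 2 (adjusted p of 0.144 and 0.0834). Osbp and Gramd1c were also lost with the trend over transcript length removed (adjusted p of 0.0702 and 0.155), Gramd1c and Vldlr with no filter on low counts (0.0557 and 0.0785) and with the replicate block (0.0620 and 0.122), and Vldlr with upper quartile scaling (0.0607), with library size alone (0.62, adjusted p = 0.269) and with limma on log2(FPKM + 1) (0.11, adjusted p = 0.2997) or log2(FPKM + 0.1) (0.39, adjusted p = 0.336). Scarb1 and Npc2 lost their calls with library size alone (0.25 with an adjusted p of 0.160 for Scarb1, and 0.017 with 0.902 for Npc2) and with limma on log2(FPKM + 1) or log2(FPKM + 0.1).

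Of 14 genes that use the non-sterol products, 4 fell and 2 rose, with a median of -0.26, and with library size alone 11 fell and 1 rose, where 48.3% of all genes fell. Pdss2, for the side chain of ubiquinone, fell by 1.14 (SE 0.16, adjusted p = 0.00161), Fntb, a subunit of protein farnesyltransferase, by 1.28 (SE 0.27, adjusted p = 0.00828) and Dolk, dolichol kinase, by 1.47 (SE 0.32, adjusted p = 0.00972). Rabggtb, a subunit of the Rab prenyltransferase, rose by 0.86 (SE 0.10, adjusted p = 0.000712) and Rce1, which trims prenylated proteins, by 1.79 (SE 0.38, adjusted p = 0.00856). The call of Rabggtb was lost with library size alone (0.20, adjusted p = 0.162) and with limma on log2(FPKM + 1) or log2(FPKM + 0.1), and that of Rce1 with limma on log2(FPKM + 1) (adjusted p = 0.0523).

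Of 14 lipogenic genes under SREBP1, 4 fell and 1 rose, with a median of -0.11, and with library size alone 9 fell and 1 rose, again with 48.3% of all genes falling. Acss2, which makes cytosolic acetyl-CoA from acetate, was at 85.5, 78.7 and 58.0 CPM after ethanol and 393, 245 and 241 CPM in controls, and fell by 1.98 (SE 0.24, adjusted p = 0.00102). Elovl6 fell by 0.76 and Me1 by 0.69, the latter with an adjusted p of 0.0567 without control mouse 1 and 0.0564 with the trend over transcript length removed. Thrsp, a promoter of lipogenesis, rose by 2.90 (SE 0.31, adjusted p = 0.000640). Differences between the lists were not tested. With library size alone the medians were -1.997 for the enzymes, 0.17 for efflux and LXR, -0.67 for SREBP cleavage, -0.61 for uptake, -0.93 for prenylation and -0.77 for the lipogenic genes, beside -0.71 for all genes.

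**Figure D5:**
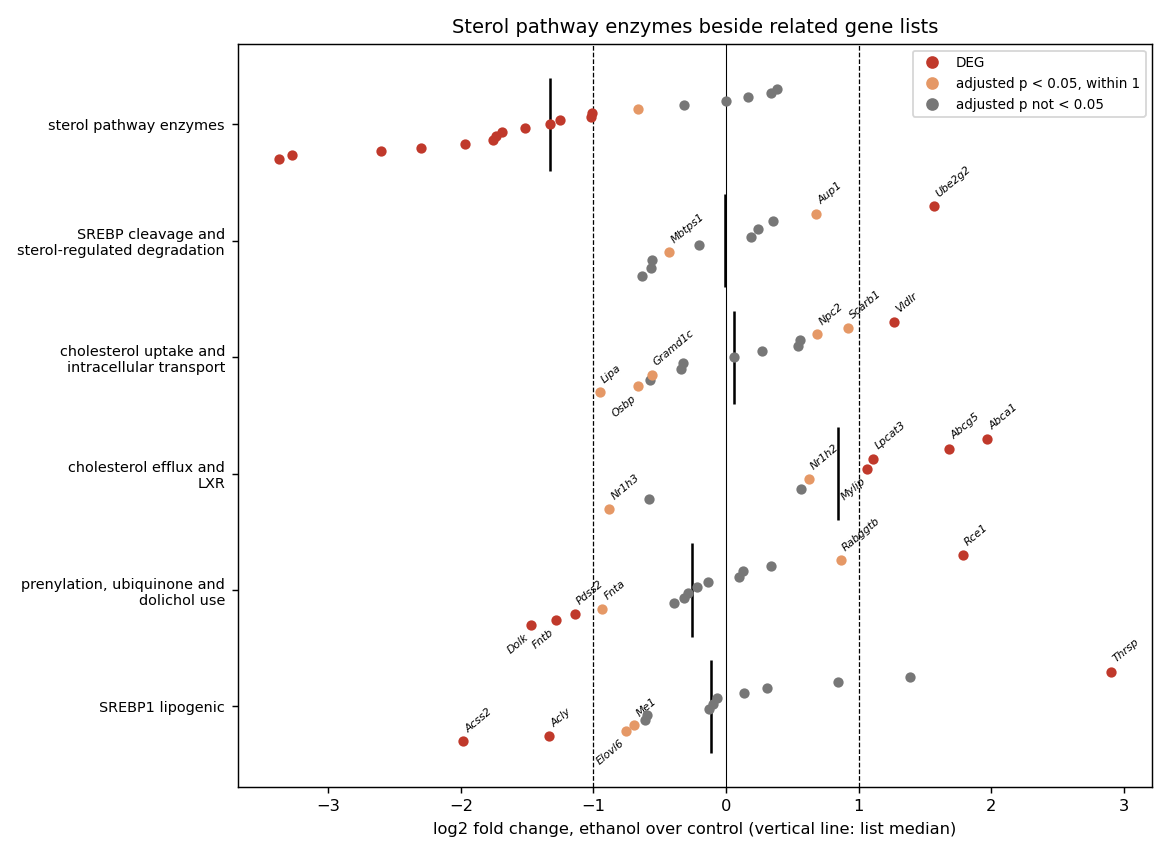
Log2 fold change, ethanol over control, of the 19 sterol pathway enzymes and of the genes in 5 related lists, 1 point per gene, coloured as DEG, passing on the adjusted p alone or not passing, with the list median as a vertical bar. The enzymes have a median of -1.33 and the efflux and LXR genes one of 0.84, while the other 4 medians lie between -0.26 and 0.06, and between -0.93 and -0.61 with library size alone, where that of all genes is -0.71.

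Total counts per library were 71123046 to 74001784 in ethanol-exposed mice and 60514417 to 74210869 in controls, and mice of 1 group differed by more than counting noise, with chi-square values of 49.6 to 496 for each degree of freedom. The TMM factors differed between the groups, 0.768 to 0.836 after ethanol and 1.26 to 1.27 in controls. Counts of markers that passed stand beside the 21.5% of all genes that fell and the 21.5% that rose with TMM. Hepatocyte markers rose in 7 of 8 genes, with a summed level of 126032 to 127972 CPM after ethanol and 68441 to 79716 CPM in controls. With library size alone 2 of the 8 rose and 1 fell, beside 7.39% and 48.3% of all genes. Kupffer cell markers summed to 81.6 to 111 CPM against 105 to 113 CPM (1 of 7 fell), endothelial markers to 65.9 to 123 CPM against 72.2 to 85.0 CPM (2 of 5 fell and 1 rose), stellate cell markers to 120 to 149 CPM against 105 to 123 CPM (1 of 6 fell and 1 rose) and cholangiocyte markers to 57.6 to 75.0 CPM against 31.7 to 73.1 CPM (1 of 5 rose). The endothelial gene that rose was Lyve1, at 24.2, 33.3 and 69.3 CPM in ethanol-exposed mice against 3.39, 3.67 and 3.49 CPM in controls. Clec4g and Kdr were the 2 that fell. The cholangiocyte gene that rose was Sox9, at 29.6, 34.2 and 32.4 CPM against 4.25, 4.62 and 5.12 CPM. Neutrophil markers summed to 1.41, 2.34 and 9.31 CPM in ethanol-exposed mice 1, 2 and 3, with mouse 3 highest, and 0.262 to 0.352 CPM in controls. Of these 5 markers near 0, Ly6g and Mpo had 0 counts in 5 of the 6 libraries. Both genes tested of these 5 rose, S100a9 by 3.98 on the log2 scale (adjusted p = 0.00739) and S100a8, at 0 counts in 2 of the control libraries, with a fitted change of 6.29 that depends on the prior count (adjusted p = 0.00655). T cell markers summed to 0.229 to 0.852 CPM against 0.729 to 0.787 CPM. Of the T cell markers, 0 of 3 tested passed by either tool, and 0 at an unadjusted p under 0.05. B cell markers summed to 0.825 to 2.40 CPM against 1.20 to 2.07 CPM (1 of 4 fell). The B cell gene that fell was Ms4a1, with 0 counts in 2 of the ethanol libraries and at most 28 counts in any library. The part of cell composition in the results on the 29 genes was not tested.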

How the data were processed

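Libraries were grouped and numbered from their labels, which name a separate mouse for each. For each Ensembl gene the authors deposited a whole-number count of reads, not normalized, and an FPKM value scaled by them to transcript length and library size. The aligner, the counting software, the annotation and the use of strand are not given in the sources used here. The processing notes name GRCm38 and mm10, yet 0 of the 29 genes have the start and end of GENCODE M21 on GRCm38 (539 of 27049 genes do), so coordinates are those of the deposited table and promoter coordinates (GRCm38.p6) were kept apart from them. Of the 29 genes, 12 overlap another gene in the table, 4 of them on the same strand, and their counts are uncertain to that extent. Genes were kept apart by identifier, since 82 symbols occur more than once. Counts of 1 further column, whose name matches no sample, were not used.

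Counts were analysed in R 4.3.3 with edgeR 4.0.16 (filterByExpr, TMM factors, glmQLFit and glmQLFTest, no covariate), and adjusted p-values are by Benjamini and Hochberg over all genes kept. The comparison of groups and the thresholds follow the study's methods, which name R but no package. Those methods state more mice per group for the mouse experiments than the 3 used here. The standard error is the log2 fold change divided by the square root of F. Alternatives used DESeq2 1.42.0 and limma 3.58.1. The edgeR and DESeq2 tests and limma on log2(FPKM + 1) were tested on simulated counts. As many genes were raised as lowered there, so the simulation could not probe the choice of scaling. With 3 mice per group, the number of mice limits precision, and the median standard error over all genes was 0.26.

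The 29 genes, the other lists and the alternatives were chosen with earlier results of these data known. Named genes are all 29 and, in each related list, up to 3 that fell and up to 3 that rose with the smallest adjusted p. Srebf1, Acat3, Abcg8, Abcg1, the cell-type markers named and the genes named for overlapping a member lie outside this rule. Promoters were to be shown for DEGs with a sterol motif in the window, which left Hmgcs1, and those of Idi1 and Mvd were added after the values were seen.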

Additional observations from a re-analysis of the deposited data

How the results depend on the processing

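Of the 29 genes, 11 were downregulated DEGs in every alternative, and the number of downregulated DEGs ran from 11 (trend with transcript length removed, and leaving out ethanol replicate 3 or control replicate 1) to 18 (limma on log2(FPKM + 0.1)). Of all genes, downregulated DEGs made up 11.5%, 16.5%, 10.2% and 29.7% in these 4 settings. Leaving out each replicate gave 11 to 15 downregulated and 0 to 1 upregulated DEGs, the latter Soat2 without ethanol replicate 1 or 2, and a median of -1.02 to -0.71. On the adjusted p alone, 3 rose. The median was -1.58 with library size alone and -1.58 with limma on log2(FPKM + 0.1), settings that moved the median of all genes to -0.71 and -0.58. With limma on log2(FPKM + 1) and with upper quartile scaling, the median of the 29 genes was -1.30 and -1.01 and that of all genes -0.27 and -0.14. Across genes, deviations from the group mean in ethanol-exposed and control mice of the same number had correlations of -0.044, -0.0336 and -0.00697. These show no strong shared effect of the replicate number, but they cannot show how mice were matched or handled. With the replicate block 14 genes were downregulated DEGs.

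These log2 fold changes reversed sign. Nus1 alone of these genes passed with TMM, while under the alternatives Hsd17b7 passed downward in 3 (adjusted p of 0.0213 to 0.0261) and Ebp in 4 (0.00256 to 0.0112). With library size alone, limma on log2(FPKM + 1) and limma on log2(FPKM + 0.1), in that order, Tm7sf2 was at -0.34, -0.33 and -0.35, Lbr at -0.28, -0.19 and -0.29, Hsd17b7 at -0.66, -0.62 and -0.68, Ebp at -0.50, -0.50 and -0.51, Nus1 at -0.052, -0.055 and -0.062, Insig1 at -0.19, -0.74 and -0.76 and Tmem97 at -0.32, -0.31 and -0.32. With limma on quantile-normalized log2(FPKM + 1), Tm7sf2 was at -0.039, Hsd17b7 at -0.24, Ebp at -0.35, Insig1 at -0.70 and Tmem97 at -0.14. With a mean FPKM of at least 5, Hsd17b7 was at -0.27 and Ebp at -0.11. Hsd17b7 was also at -0.091 with upper quartile scaling, -0.027 without a filter, -0.021 with DESeq2, -0.019 with the replicate block, and from -0.17 to 0.17 with a replicate left out. Insig1 with the replicate block was at -0.0028. The cause was not tested.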
